A study of Mus musculus with 4 samples.

Results

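The genes described here are 33 components of the TGF-beta, activin and BMP pathway, measured in mouse embryonic fibroblasts that lack Men1. They were chosen by symbol from a list of pathway genes, and a probe set was used where the array's annotation gave exactly 1 symbol. The 33 genes had 38 such probe sets, out of 12422 probe sets tested and 8251 genes with a single-symbol probe set. Each gene is represented by its brightest probe set. Ctgf is listed as Ccn2 in the annotation. All 4 arrays held total RNA from cultured Men1 knockout fibroblasts on a mixed FVB and 129Sv background. In the Men1-complemented group (2 arrays) Men1 had been put back, and in the vector group (2 arrays) the same knockout cells carried vector. All cells were grown with 10% serum, seeded at 70% density and harvested after 24 h, and no TGF-beta, activin or BMP was added per the labels. The labels do not give the promoter that drives the introduced Men1, the way the knockout was made, the age of the embryos, or whether the cells came from 1 clone or several. They also do not say that the 2 arrays of a group stand for separate cultures. The p-values below therefore rest on a spread between arrays that may be technical.

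Ligands of the TGF-beta family are secreted as precursors and bring together type I and type II receptor kinases on the cell surface. The receptors phosphorylate Smad proteins, which join Smad4 and act on genes in the nucleus. TGF-beta and activin work through Smad2 and Smad3, and BMPs through Smad1, Smad5 and Smad9. In fibroblasts TGF-beta is known for raising matrix production and the contractile proteins of myofibroblasts, and BMPs for raising the Id genes. Menin, the product of Men1, has been described as a partner of Smad3.

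The single Men1 probe set read 18.8 and 22.5 with Men1, against 18.1 and 29.5 with vector, so it did not separate the groups. Its position in the gene is not given in the sources used here, so it is no check of the labels. As a measure of background, 19 control probe sets for bacterial and yeast RNA reached at most 25.9 (replicate 1) and 27.4 (replicate 2) with Men1, and at most 15.9 and 20 with vector. Where both arrays of a group were at or below these values, the gene is said to be at control level in that group. Of the 33 genes, 27 were at control level in neither group, 4 were at control level with Men1 alone, and 2 were at control level in both. A gene at control level in neither group can still have an array below the controls, as Nog, Skil and Id4 did. The controls reached higher with Men1, so control level with Men1 alone does not mean a lower signal there. Ltbp2, for example, read 17.6 and 23.9 with Men1, against 18.7 and 20 with vector. Of 12 fibroblast markers, 8 exceeded the controls on every array, including Col1a1 and Pdgfra, whereas Thy1 and Fap did so on none. Vim was among the 8 but stayed near the controls, at 28.8 against 27.4 on Men1-complemented replicate 2. Epcam and Krt8 of the epithelial list, Cdh5, Tek and Tie1 of the endothelial list, and Ptprc, Lyz2 and Adgre1 of the blood cell list exceeded the controls on no array. Other markers did so on every array, namely 2 of 6 epithelial (Cdh1 and Krt19), 1 of 5 endothelial (Pecam1), 2 of 5 blood cell (Cd74 and Cd68), 3 of 5 skeletal muscle and 4 of 5 neural markers. Summed signals of the skeletal muscle markers were 253.2 to 265 with Men1 and 344.8 to 397.7 with vector, whereas those of the fibroblast, epithelial, endothelial, blood cell, smooth muscle and neural lists overlapped between the groups. Of the 5 skeletal muscle markers, Myog (23.7 and 28.1 against 68.1 and 53.3) and Tnni1 (61.4 and 74.5 against 111.9 and 105.4) separated by group. Myod1, Ckm and Acta1 overlapped. The part of these cell type markers in the pathway values was not tested. In RNA from a whole culture, fewer cells of a type and less RNA per cell cannot be told apart. Levels of different genes are not compared, because probe sets differ in brightness.

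No pathway gene passed the test between the groups. Differences are Men1-complemented minus vector on the log2(signal + 16) scale, which understates the fold of dim genes, and they were tested with limma over all probe sets. Of the 33 genes, 0 passed an adjusted p of 0.05, as did 0% of all probe sets, and their adjusted p was 1 throughout. Without adjustment, 1 pathway gene (Id2) had a p under 0.05, beside 1.88% of all probe sets. The 4 arrays separated by group for 8 of the 33 genes (24.2%), against 22.1% of all probe sets, a share near the background. Of these, Tgfb1, Ltbp4, Ski, Grem1, Id2 and Id3 (6 genes) read higher with Men1 on both arrays, as did 10.4% of all probe sets. Gdf10 and Fstl1 read lower, as did 11.7% of all probe sets. Differences were above 0 for 22 genes and below 0 for 11, beside 3879 and 4372 of the 8251 single-symbol genes. The count above 0 was 17 without vector replicate 1, and also 17 without Men1-complemented replicate 2. Without vector replicate 2 it was 23, and without Men1-complemented replicate 1 it was 24. The median difference was 0.062 for the 33 genes and -0.013 for all single-symbol genes. Between replicate arrays, the median of the 33 genes varied with an SD of 0.079. In 25 of the 33 genes the difference was smaller than its standard error (SE), and SEs ran from 0.17 to 0.69. The count at an unadjusted p under 0.05 depended on single arrays. It was 7 without vector replicate 1 (Tgfb1, Inhba, Inhbb, Bmp4, Gdf10, Smad7 and Ctgf), where the share of all probe sets also came to 8.30%. Without vector replicate 2 it was 3 (Inhbb, Grem1 and Fstl1), beside 4.50% of all probe sets. Without Men1-complemented replicate 1 it was Grem1 alone (beside 0.974% of all probe sets), and without replicate 2 of that group it was 0 (beside 1.05%). The lowest adjusted p of a pathway gene in any of these fits was 0.576.

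**Figure D1:**
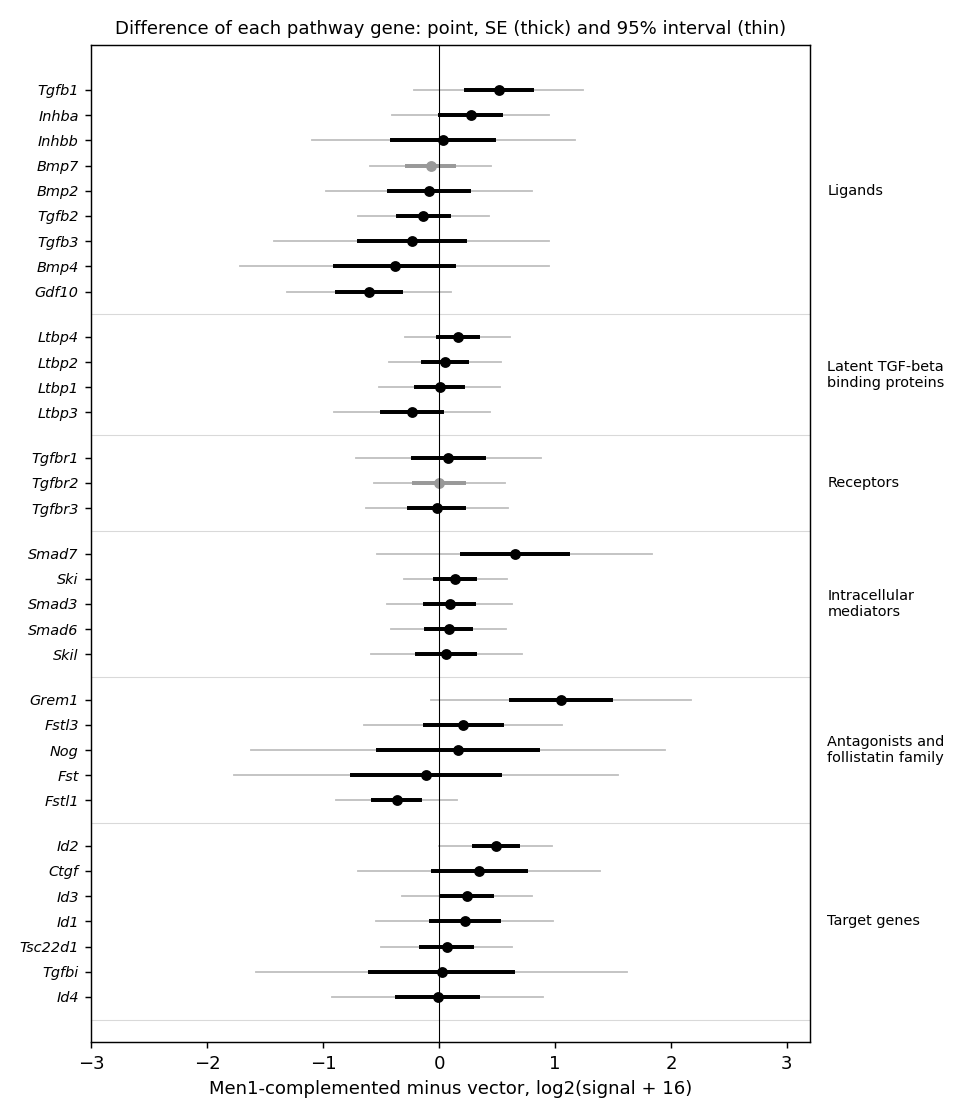
Difference between the groups for each of the 33 pathway genes by role, as Men1-complemented minus vector on the log2(signal + 16) scale, with the SE (thick line) and the 95% interval of the limma fit (thin line). Grey points are Bmp7 and Tgfbr2, at control level in both groups. The 95% interval holds 0 for 32 of the 33 genes, the exception being Id2, and Grem1 has the difference farthest from 0.

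Among the ligands, Tgfb1 alone read higher on both Men1-complemented arrays than on both vector arrays. It encodes the TGF-beta isoform best known in fibrosis. Its probe set (101918_at) read 398.8 and 351.9 with Men1, against 330.2 and 199.6 with vector. The groups did not overlap, but the vector arrays stood farther from each other than the nearer of them stood from the Men1-complemented arrays. Mean signals were 375.4 ± 33.2 and 264.9 ± 92.3 (SD, n = 2 each), a log2 difference of 0.52 (SE 0.28, limma adjusted p = 1). Without vector replicate 2 the difference was 0.17, and without vector replicate 1 it was 0.86. Tgfb2 read 128.9 and 159.1 against 181.1 and 139.4, which overlap (difference -0.14, SE 0.22). Tgfb3 read 297.9 and 629.9 with Men1, against 382 and 689.6 with vector. It was brighter on the replicate 2 array of each group, and the difference between groups was -0.24 (SE 0.46). A second, dim Tgfb3 probe set, at control level with Men1, was also brighter on both replicate 2 arrays.

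The activin subunits did not separate the groups. Inhba, the beta A subunit that forms activin A, read 221.6 and 205.1 with Men1, against 219.4 and 137.1 with vector, a difference of 0.27 (SE 0.26). Of these 4 arrays, vector replicate 2 was the low one. Inhbb, the beta B subunit, read 209.1 and 180.7 with Men1, against 300.5 and 117.1 with vector, so that the highest and the lowest signal were both vector arrays (difference 0.036, SE 0.44). Without vector replicate 2 the Inhbb difference was -0.59, and without vector replicate 1 it was 0.66.

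The BMP ligands were dim or uneven. Bmp4 read 86.6 and 134.3 with Men1, against 83.1 and 249 with vector, a difference of -0.38 (SE 0.52) that rested on vector replicate 2, since it was 0.33 without that array. A second Bmp4 probe set read 21 and 19.1 against 16.5 and 89.6, where vector replicate 2 again stood alone. Bmp2, in the brightest of its 3 probe sets, was at control level with Men1 (16 and 9.2) and read 6.3 and 24.7 with vector. Bmp7 was at control level in both groups, with signals of 4.9, 8.5, 5.8 and 10. Gdf10, a BMP3-related ligand, was at control level with Men1 (4.4 and 10.9) and read 13.5 and 27 with vector. Its groups did not overlap, but of its 4 signals only vector replicate 2 exceeded the controls, so no bound on the fold above 1 could be given.

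The genes of the latent TGF-beta binding protein family differed by 0.24 or less between the groups. Ltbp1 read 481.1 and 562 against 570.3 and 471.4, a difference of 0.0039 with a 95% interval from -0.52 to 0.52. Ltbp4 read 813.2 and 736.2 with Men1, against 681.7 and 699.4 with vector, which did not overlap, and differed by 0.16 (SE 0.17, 95% interval -0.29 to 0.61). Ltbp3 differed by -0.24 (SE 0.26), with its highest signal on vector replicate 2. Ltbp2 was at control level with Men1, and its 4 signals ran from 17.6 to 23.9. These intervals leave room for differences in either direction.

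The receptors gave little to compare. Tgfbr2, the type II receptor that binds TGF-beta, was at control level in both groups, with a highest signal of 6.2. Tgfbr1, the type I receptor kinase, was at control level with Men1 (10.3 and 13.8) and exceeded the controls on 1 vector array alone (18.7 against 4.2 on the other). These low signals show what these probe sets detected and do not show that the receptors were absent. Tgfbr3, the co-receptor betaglycan, was above control level on all arrays and read 61 and 64.1 with Men1, against 50.7 and 79.4 with vector. Its difference was -0.023 (SE 0.24, 95% interval -0.64 to 0.59), and the vector arrays enclosed both Men1-complemented ones.

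Of the intracellular genes, Smad7 had the difference farthest from 0. It is an inhibitory Smad that TGF-beta induces and that blocks the receptors in turn. The probe set (92216_at) read 453 and 328 with Men1, against 378.7 and 149.9 with vector. The groups overlapped, and vector replicate 2 lay apart below the other 3 arrays. The difference was 0.65 (SE 0.46, limma adjusted p = 1) on all arrays, 0.025 without vector replicate 2 and 1.28 without vector replicate 1. Smad6, the inhibitory Smad of the BMP branch, read 195.8 and 195.3 against 164.6 and 204.9 (difference 0.083, SE 0.19). Smad3, the Smad that TGF-beta and activin receptors activate, read 53.1 and 39.3 against 37.8 and 46.7 (difference 0.090, SE 0.21). Both Smad co-repressors differed by less than their SE. Ski read 999.5 and 974.7 with Men1, against 860.5 and 929.2 with vector, which did not overlap, and the difference was 0.14 (SE 0.17, 95% interval -0.31 to 0.59). Skil, which encodes SnoN, read 36.9 and 22.5 against 32.9 and 22.2 and was lower on the replicate 2 array of each group.

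Grem1 had the difference farthest from 0 of all 33 genes. It encodes gremlin, a secreted protein that binds BMPs and keeps them from their receptors. Its probe set (101758_at) read 165.2 and 291.4 with Men1, against 64.9 and 144.1 with vector. Both Men1-complemented arrays lay above both vector arrays, and within each group replicate 2 was the brighter. Mean signals were 228.3 ± 89.2 and 104.5 ± 56 (SD, n = 2 each), a log2 difference of 1.05 (SE 0.43), or 2.07-fold on the log2(signal + 16) scale. This did not pass (unadjusted p = 0.0606, limma adjusted p = 1), and the 95% interval ran from -0.069 to 2.17. Leaving out single arrays gave differences from 0.56 (without vector replicate 1) to 1.54 (without vector replicate 2).

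The promoter of Grem1 is shown with that of Id2, because these genes had the smallest unadjusted p among the 33. Both are the 250 bases before the RefSeq gene start in GRCm38.p6, 5′ to 3′ on the gene's strand. Capitals mark letters bound by Smad proteins in other promoters, searched on both strands. They are the palindromic Smad box GTCTAGAC, its shorter form CAGAC, and the GC-rich element GGCGCC, none of which overlap in these windows.
Grem1, chr2:113758649-113758898, minus strand: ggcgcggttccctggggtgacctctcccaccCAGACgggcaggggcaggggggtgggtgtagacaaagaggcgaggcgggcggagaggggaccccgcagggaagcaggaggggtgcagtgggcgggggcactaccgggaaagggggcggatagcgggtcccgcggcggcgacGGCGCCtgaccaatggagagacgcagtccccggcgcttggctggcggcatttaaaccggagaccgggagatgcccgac
Id2, chr12:25096093-25096342, minus strand: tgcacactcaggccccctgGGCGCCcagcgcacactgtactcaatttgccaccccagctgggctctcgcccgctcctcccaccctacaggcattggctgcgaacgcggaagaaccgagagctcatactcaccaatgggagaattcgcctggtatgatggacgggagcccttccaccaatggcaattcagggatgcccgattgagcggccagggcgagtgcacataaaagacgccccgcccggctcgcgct
The Grem1 window holds 1 CAGAC and 1 GGCGCC, and the Id2 window holds 1 GGCGCC. Of all 32851 promoter windows of this length, 9.59% hold GGCGCC, 42.2% hold CAGAC and 0.167% hold GTCTAGAC. Promoters were found for 23 of the 33 genes, some with several starts, which gave 31 windows. Of these windows 10 held GGCGCC, 14 held CAGAC and 0 held GTCTAGAC. By gene, 8 of the 23 had GGCGCC, 12 had CAGAC and 0 had GTCTAGAC in at least 1 window. No promoter was found for Smad7, Ctgf, Skil, Id1, Bmp2, Bmp7, Tgfb3, Tgfbr3, Nog and Fst, so these counts do not cover them. The share of G and C was 72.0% in the Grem1 window and 62.8% in the Id2 window. Windows were not matched for it, and several starts of 1 gene were counted apart. Enrichment was not tested, and a match describes the letters alone.

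The groups overlapped for 3 of the other antagonists and follistatin family genes. Nog, which encodes the BMP-binding protein noggin, read 31.8 and 64.6 with Men1, against 12.2 and 92.8 with vector. The vector arrays enclosed the Men1-complemented ones, and the log2 difference of 0.16 (SE 0.69) had the opposite sign to that of the mean signals (48.2 and 52.5). Fst, which encodes the activin-binding protein follistatin, read 45.9 and 131.4 with Men1, against 46.1 and 155.4 with vector. Here the replicate 1 arrays were nearly equal and the replicate 2 arrays were both brighter, so the difference between groups was -0.11 (SE 0.64). Fstl3, which also binds activin, read 64.4 and 89.7 against 44.6 and 88.9 (difference 0.21, SE 0.33). Fstl1, a secreted glycoprotein with a follistatin-like domain, read 598.7 and 640.7 with Men1, against 902.6 and 713.1 with vector. Its groups did not overlap, with a difference of -0.37 (SE 0.20, 95% interval -0.89 to 0.16). Without single arrays the difference ran from -0.53 to -0.20, and where groups do not overlap its sign cannot change.

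**Figure D2:**
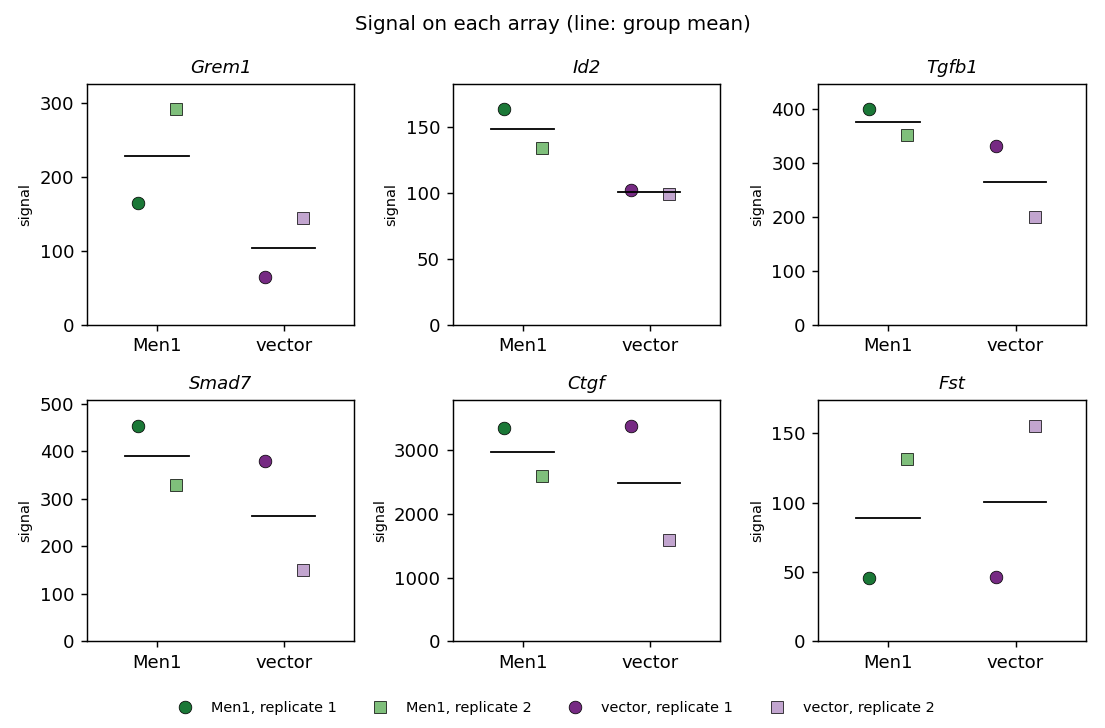
Signal on each of the 4 arrays for 6 pathway genes, on linear axes that start at 0, with Men1-complemented arrays in green, vector arrays in purple, circles for replicate 1, squares for replicate 2 and a line at each group mean. Grem1, Id2 and Tgfb1 separate by group, whereas vector replicate 2 lies lowest for Smad7 and Ctgf, and both replicate 2 arrays lie highest for Fst.

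Among target genes, Id2 had the smallest p, which was also the smallest of the 33 genes. Id proteins bind basic helix-loop-helix factors and keep them from DNA. The Id2 probe set (93013_at) read 163.5 and 133.9 with Men1, against 102.5 and 99.2 with vector. The vector arrays were nearly equal, and both Men1-complemented arrays lay above them. Mean signals were 148.7 ± 20.9 and 100.8 ± 2.33 (SD, n = 2 each), a log2 difference of 0.49 (SE 0.19, 95% interval 0.0026 to 0.98), or 1.40-fold on the log2(signal + 16) scale. The unadjusted p was 0.0492 and the limma adjusted p was 1. Leaving out any single array gave differences from 0.36 to 0.62 with unadjusted p from 0.0845 to 0.302 in limma, so the unadjusted p did not stay under 0.05.

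The other Id genes differed from one another in their pattern over the arrays. Id1 read 275.6 and 222.2 with Men1, against 272 and 161.4 with vector, a difference of 0.22 (SE 0.30), which was -0.13 without vector replicate 2. Id3 read 458.8 and 476.1 with Men1, against 456.8 and 338.2 with vector. Its groups did not overlap, but vector replicate 1 lay beside both Men1-complemented arrays, and without vector replicate 2 the difference was 0.032 in place of 0.24 (SE 0.22). Id4 read 25 and 43.9 against 22 and 49.7 and was brighter on both replicate 2 arrays, with a difference of -0.012 (SE 0.35). Of the 4 Id genes, Id2 alone had a vector replicate 1 signal well below both Men1-complemented signals.

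For Ctgf, Tgfbi and Tsc22d1 the wider gap within a group exceeded the difference between the groups, as it did for 86.8% of all single-symbol genes. Ctgf, a matricellular protein that TGF-beta induces in fibroblasts, read 3353.2 and 2600.9 with Men1, against 3383.9 and 1590.3 with vector. The replicate 1 arrays were nearly equal, and the difference of 0.35 (SE 0.40) was -0.20 without vector replicate 2 and 0.89 without vector replicate 1. Tgfbi, a secreted matrix protein named for its induction by TGF-beta, read 32.8 and 85.2 with Men1, against 24.7 and 101.7 with vector (difference 0.022, SE 0.62). Tgfbi thus lay highest on the replicate 2 arrays, on which Ctgf and Smad7 lay lowest. Tsc22d1, a leucine zipper gene also induced by TGF-beta, read 763.2 and 1025 against 878.1 and 813.6 (difference 0.065, SE 0.22).

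**Figure D3:**
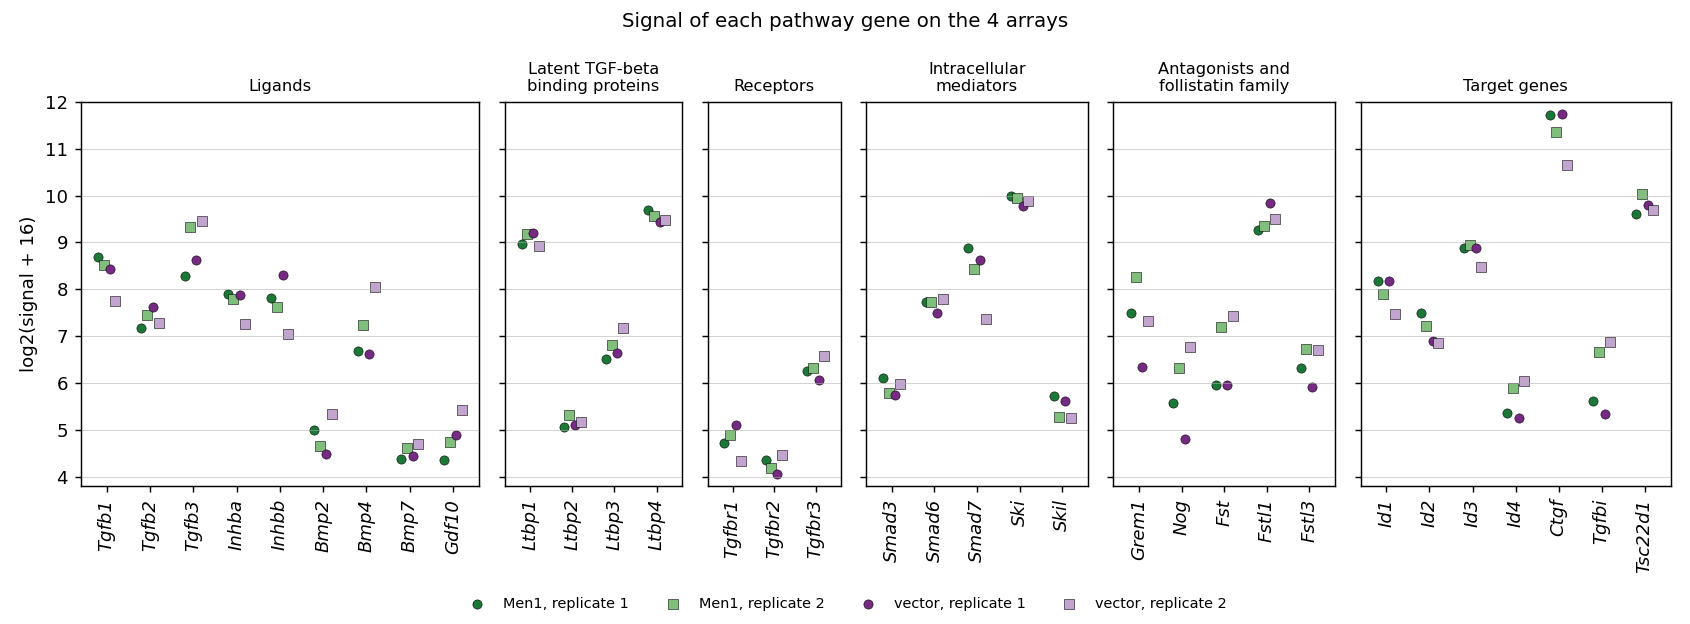
Signal of each of the 33 pathway genes on the 4 arrays as log2(signal + 16), in panels by role, with Men1-complemented arrays in green, vector arrays in purple, circles for replicate 1 and squares for replicate 2. Squares lie apart from circles in both groups for Tgfb3, Fst, Tgfbi and Id4, and heights of different genes are not comparable because probe sets differ in brightness.

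For these genes the arrays of a group stood farther apart, by the median, than over all genes, without matching for brightness. At control level in both groups were 2 of the 33 genes, against 1562 of the 8251 single-symbol genes. The scale used here understates the fold of dim genes, and the part of brightness in the wider gaps was not tested. The median absolute gap between the arrays of a group was 0.29 with Men1 and 0.54 with vector over the 33 genes, beside 0.20 and 0.31 over all single-symbol genes. In 27 of the 33 genes (81.8%) the wider of these gaps exceeded the difference between the groups, as in 86.8% of all single-symbol genes. The gap had the same sign in both groups for 21 of the 33 genes (63.6%), beside 56.9% of all single-symbol genes. In 13 of the 21, replicate 2 was the brighter array of each group, with gaps of 1.25 and 1.46 for Fst (Men1-complemented and vector), 1.05 and 1.53 for Tgfbi, 0.75 and 1.95 for Nog, 1.04 and 0.83 for Tgfb3, and 0.55 and 1.42 for Bmp4. In the other 8 it was the dimmer, with gaps of -0.45 and -1.25 for Smad7, -0.37 and -1.08 for Ctgf, -0.29 and -0.70 for Id1, and -0.17 and -0.68 for Tgfb1. Of the 4696 single-symbol genes with the same sign in both groups, replicate 2 was the brighter for 2894 and the dimmer for 1802, a similar split. Vector replicate 1 was the lowest of the 4 arrays for 13 of the 33 genes (39.4%, beside 36.5% of all probe sets), and vector replicate 2 for 11 (33.3%, beside 20.4%), 4 of them among the 7 target genes. Nothing in the labels says what the replicate number stands for.

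**Figure D4:**
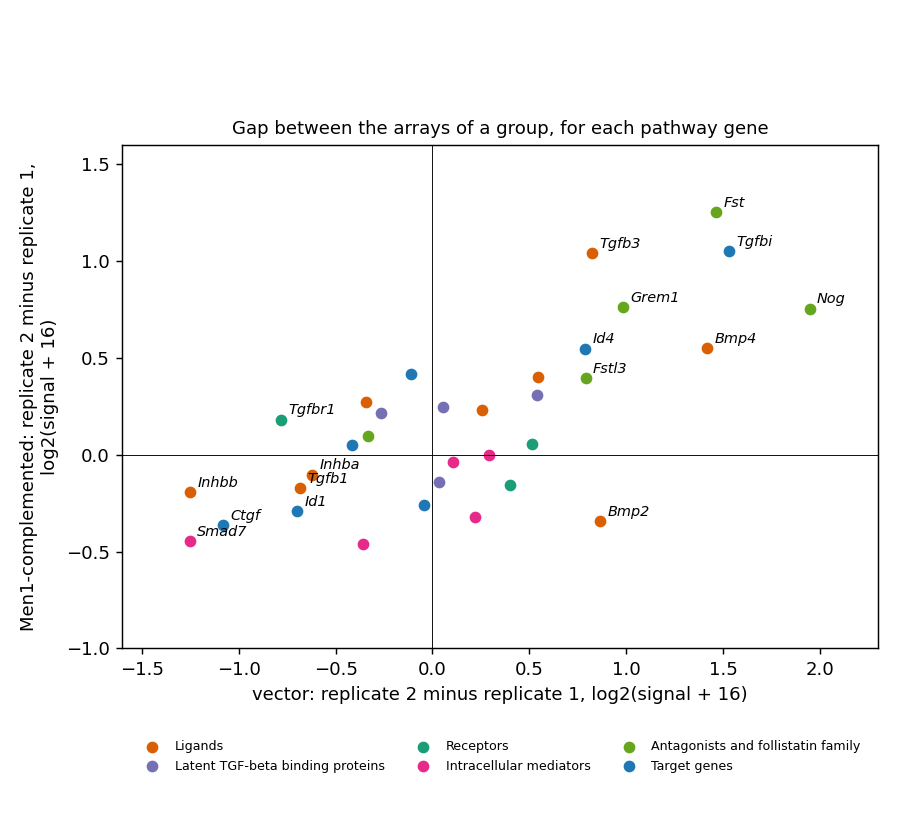
Gap between the arrays of a group for each of the 33 pathway genes, as replicate 2 minus replicate 1 on the log2(signal + 16) scale, with vector on the horizontal and Men1-complemented on the vertical axis, coloured by role. Fst, Tgfbi, Nog, Tgfb3, Grem1, Bmp4, Id4 and Fstl3 lie to the upper right, and Smad7, Ctgf, Id1, Tgfb1, Inhba and Inhbb lie to the lower left.

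Acta2, Tagln and Cnn1, which encode contractile proteins, were also higher on the replicate 1 array of each group. The summed signal of the 5 smooth muscle markers was 8932 and 5465.2 with Men1 and 11108.1 and 5186.9 with vector, so that both replicate 1 arrays were high and the groups overlapped. These 3 of the 5 markers exceeded the controls on every array and made up most of the sum. Des, the intermediate filament desmin, went the other way with vector and read 37.5 and 8.9 with Men1, against 13.4 and 37.3 with vector. Tagln, an actin-binding protein that TGF-beta induces in myofibroblasts, read 3115.5 and 1643.7 with Men1, against 4186.9 and 1352.7 with vector. Myh11, the defining myosin of mature smooth muscle, was at control level on all arrays. Their part in the values of the pathway genes was not tested.

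Further genes of the pathway were listed by role. Of 92 listed genes 62 were measured, and 0 passed the adjusted p (0% of all probe sets). Differences were above 0 for 32 and below 0 for 30, with a median of 0.032, and the groups did not overlap for 12 of the 62 (19.4%, beside 22.1% of all probe sets). Beside 1.88% of all probe sets, 1 of the 62 genes had an unadjusted p under 0.05, a share near the background. It was Gdf11, a ligand that signals through activin receptors. It read 37.2 and 43.5 with Men1, against 22.3 and 15.8 with vector, a difference of 0.69 (SE 0.20, unadjusted p = 0.0176, limma adjusted p = 1). The vector replicate 2 signal of Gdf11 lay below the highest control of 20, so the size of the difference is uncertain, and without Men1-complemented replicate 1 or 2 the unadjusted limma p was 0.0657 or 0.123.

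Of 15 other target genes, the groups did not overlap for 6 (40.0%, beside 22.1% of all probe sets), of which 5 read higher with Men1 (10.4% of all probe sets did). By smallest p these were led by Snai1, a repressor linked to TGF-beta and mesenchymal identity, at 163.3 and 213.3 against 133.5 and 139.5 (difference 0.41, SE 0.20, and 0.23 without Men1-complemented replicate 2). Klf10, named as a TGF-beta inducible early gene, read 172.6 and 184.9 against 142.8 and 139.4 (difference 0.31, SE 0.17). Junb read 194.8 and 188.4 against 151 and 163.1 (difference 0.26, SE 0.17). A second, dimmer Junb probe set read 58.1 and 67.4 against 16.7 and 31.9 (difference 0.99, SE 0.25), where the vector signals lay near the controls. The mean of both probe sets differed by 0.63 (SE 0.20, unadjusted p = 0.0234, limma adjusted p = 1). For Klf10 and the brighter Junb probe set the arrays of each group lay closer to each other than to the other group, whereas the Men1-complemented arrays of Snai1 lay farther apart than the lower of them from the vector arrays. None of the 3 passed (limma adjusted p = 1). Cdkn2b read lower with Men1, at 125.6 and 150.2 against 163.7 and 151.5 (difference -0.18, SE 0.19). Of the 15 genes, 8 differed by more than 0 and 7 by less, with a median of 0.11. The groups overlapped for Postn (difference -0.67, SE 0.96), Dlx5 (-0.62, SE 0.52), Tagln (-0.073, SE 0.62) and Acta2 (-0.065, SE 0.29). Of 10 other receptors, 4 differed by more than 0 and 6 by less. By brightest probe set the groups did not overlap for 1 (10%), Bmpr2, a BMP type II receptor. It read 76.7 and 76.3 against 71.1 and 54.7 (difference 0.24, SE 0.19). Acvr1, a type I receptor of the BMP branch, differed by 0.33 (SE 0.23). Another probe set of the receptor Acvrl1 read lower with Men1, at 53.9 and 50.4 against 67.8 and 82.9 (difference -0.42, SE 0.19). The brightest Acvrl1 probe set overlapped (difference -0.071, SE 0.25). Among 9 other extracellular regulators, 4 differed by more than 0 and 5 by less, with a median of -0.11. Their differences ran from -0.76 to 0.32, and the groups did not overlap for 2. Furin, a protease that cleaves TGF-beta precursors, was higher with Men1, at 1046.9 and 912.5 against 878.1 and 696.4 (difference 0.32, SE 0.21). Cer1 went the other way (difference -0.38, SE 0.26). Its signals were 8.3 and 7.3 in the Men1-complemented group and 8.8 and 22.4 in the vector group. Of these, vector replicate 2 alone lay above the controls, and the difference was -0.060 without that array. Without vector replicate 2 the differences were 0.087 for Bmpr2, 0.10 for Acvr1 and 0.15 for Furin, and without vector replicate 1 they were 0.39, 0.56 and 0.48. Among 10 other Smads and intracellular regulators the groups overlapped for all, with differences from -0.24 to 0.15.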

How the data were processed

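RNA of 4 arrays (2 Men1-complemented, 2 vector) was hybridised to Affymetrix arrays. The authors deposited probe set intensity on a linear scale. Expression Console and MAS5 are named in the submitters' processing notes, whose versions and scaling target are not given in these sources. Priming was random as well as poly(T), per the labels' protocols. The 75th percentile of the arrays ran from 186.2 to 195, each array having been scaled as a whole, so a change in total RNA per cell cannot be seen.

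Of 12488 probe sets, 66 controls were left out. Of the 12422 tested, 10833 had 1 symbol in the platform annotation, 396 several and 1193 none. Values of log2(signal + 16), with no further normalization, were fitted with limma (version 3.58.1, R 4.3.3; lmFit, eBayes). Tests were two-sided and Benjamini-Hochberg adjusted over all 12422, at a threshold of 0.05, with 2 residual degrees of freedom and 2.87 from the prior. Precision is limited by the number of arrays (median SE 0.22). The fit was tested on simulated data whose arrays varied independently. That does not cover variation shared by arrays of the same replicate number. All 33 pathway genes are named. Values on all 4 arrays were to be given for genes at an unadjusted p under 0.05, genes separated by group with a difference of at least 0.3, and those the text turns on. Of the other pathway genes at most 5 per role were to be named, by smallest p, and cell type markers are named from their list. Acvrl1, Cdkn2b and Postn are named outside that rule, to show differences in the other direction. Genes and lists were chosen with earlier results of these data known. Promoter sequences are from RefSeq (GRCm38.p6), matched by symbol. Pseudocounts of 1 and 64, a filter on dim probe sets, quantile and 75th percentile scaling, a replicate block, leaving out each array, the mean of a gene's probe sets and inclusion of controls were tried.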

Additional observations from a re-analysis of the deposited data

How the results depend on the processing

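No probe set, none of the 33 pathway genes and none of the other pathway genes passed limma's adjusted p in any of the 12 alternatives, with 233 probe sets at an unadjusted p under 0.05 as reported. The count of the 33 genes at an unadjusted p under 0.05 was 1 as reported, 0 with a pseudocount of 1 (beside 2.69% of all probe sets), 1 with the filter (Grem1 in place of Id2, beside 1.59%), 2 with quantile normalization (Grem1 and Id2, beside 2.37%) and 0 to 7 without single arrays. Their median difference was 0.062 as reported and 0.012 to 0.17 without single arrays. A replicate block gave a count of 2 (Grem1, unadjusted p = 0.00305, and Gdf10), the count of all probe sets was 297 (2.39%), and the limma adjusted p stayed at 1. The labels do not say that a number marks a shared culture. The gaps between arrays of the 2 groups correlated with r = 0.26 across 12422 probe sets, which are not independent.

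Leaving aside the genes at control level in both groups, 9 of 31 kept their sign wherever they were tested (Tgfb1, Gdf10, Ltbp4, Smad7, Ski, Grem1, Fstl1, Id2 and Id3). Apart from Smad7, the groups of these genes did not overlap, so leaving out 1 array could not turn their sign. The other 22 genes changed sign when an array was left out, 14 of them without vector replicate 2. The filter removed 6 of the 33 genes, leaving 27. Differences without single arrays ran from -0.52 to 0.35 for Bmp2, -1.09 to 0.33 for Bmp4, -0.20 to 0.89 for Ctgf, -0.84 to 0.62 for Fst, -0.19 to 0.61 for Fstl3, -0.13 to 0.57 for Id1, -0.41 to 0.38 for Id4 and -0.038 to 0.58 for Inhba. They ran from -0.59 to 0.66 for Inhbb, -0.13 to 0.14 for Ltbp1, -0.073 to 0.17 for Ltbp2, -0.51 to 0.033 for Ltbp3, -0.81 to 1.14 for Nog, -0.17 to 0.29 for Skil, -0.071 to 0.25 for Smad3 and -0.062 to 0.23 for Smad6. For Tgfb2 they ran from -0.31 to 0.036, for Tgfb3 from -0.76 to 0.29, for Tgfbi from -0.74 to 0.79, for Tgfbr1 from -0.31 to 0.47, for Tgfbr3 from -0.28 to 0.24 and for Tsc22d1 from -0.14 to 0.27. Other settings turned 3 genes near 0: Id4 was 0.00080 with a pseudocount of 1 and 0.0043 with a common 75th percentile, Ltbp1 was -0.0043 with quantile normalization, and Tgfbi was -0.013 with a pseudocount of 64 and -0.074 as the mean of its probe sets. The cause was not tested. The lone array of a group was assumed to vary like the others.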
